A study of Rattus norvegicus with 24 samples.

Results

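The 10 genes described here make, store, take up and break down monoamine transmitters in the rat hypothalamus, or encode receptors for them: Th, Ddc, Gch1, Slc6a3, Slc18a2, Hdc, Maoa, Maob, Drd2 and Htr1b. They form a fixed list of symbols, and each probe set that the platform's probe table assigns to 1 of these symbols was taken. The blocks ended caudally where the mammillary bodies begin. All 10 genes were found, out of 14217 genes on the array, and they are covered by 15 probe sets out of 31042. Of these genes, 6 have 1 probe set, 3 (Ddc, Gch1 and Slc6a3) have 2, and Slc18a2 has 3. The samples were hypothalamic blocks from male Wistar rats 7 weeks old, 6 rats per group and 1 array per rat: untreated controls, rats held in restraint for 2 h ("stress"), and rats restrained for 2 h while (R,S)-linalool, a plant-derived odorant, evaporated from 20 µL into a 40 L box ("linalool"). No rat received linalool without restraint, so the odour can be read only on top of stress. The authors normalized control and stress arrays together (set 1) and the same stress arrays again with the linalool arrays (set 2). Each comparison therefore stays inside its set, both use the same 6 stress rats, and linalool is not set against control.

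Dopamine is made from tyrosine by tyrosine hydroxylase (Th), the rate-limiting step, and aromatic amino acid decarboxylase (Ddc), with the cofactor tetrahydrobiopterin, whose synthesis begins with GTP cyclohydrolase (Gch1). The vesicular transporter VMAT2 (Slc18a2) loads every monoamine into vesicles, and the dopamine transporter (Slc6a3) returns dopamine to the neuron. Histamine is made in a single step by histidine decarboxylase (Hdc), which in brain marks the wake-promoting neurons of the tuberomammillary nucleus at the caudal end of the hypothalamus. Monoamine oxidases A and B (Maoa and Maob) break amines down, the first mainly in catecholamine neurons and the second in serotonin and histamine neurons and astrocytes. In the hypothalamus, dopamine neurons of the arcuate nucleus hold back prolactin release.

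The values are deposited log2 signals, and arrays varied very little in many probe sets. A probe set is called compressed where its residual SD, the spread of arrays about their group means, is under 0.01 on that scale; this held for 83.5% of all probe sets in set 1 and 83.7% in set 2, and for 5 of the 15 probe sets described here in each set. Differences are therefore also given as multiples of that SD, each with an SE of 0.577. This SE takes the residual SD as fixed and leaves out its own error, so it is too small for large differences. A block holds many nuclei, so fewer cells of a type and less RNA per cell cannot be told apart. Of 15 hypothalamic marker genes, 13 were measured, with a mean log2 signal over the 13 from 8.62 to 9.20 in the control arrays and 4 of them compressed in set 1; signals of different probe sets do not rank genes by abundance. Array medians lay between 8.16 and 8.19 in set 1 and between 8.13 and 8.15 in set 2. Controls 3 to 6 had raised scores for 13 meningeal and fibroblast genes (0.53, 0.85, 2.25 and 2.19 residual SDs, against -0.93 and -0.66 in controls 1 and 2 and -0.92 to -0.50 in the stress arrays).

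The promoters below are shown because Th, Slc18a2 and Slc6a3 varied together from rat to rat in values pooled over groups. Hdc correlated weakly with them there, though not in every single group, as the values further on show. Each is the 250 bases before the RefSeq gene start (assembly GRCr8), 5′ to 3′ on the gene's strand. Capitals mark matches, on either strand, to 5 motifs: the cAMP response element TGACGTCA, the NR4A element AAAGGTCA, the TATA box TATAAA, the GC box GGGCGG and the glucocorticoid receptor motif TGTTCT.
Th, chr1:207508219-207508468, minus strand: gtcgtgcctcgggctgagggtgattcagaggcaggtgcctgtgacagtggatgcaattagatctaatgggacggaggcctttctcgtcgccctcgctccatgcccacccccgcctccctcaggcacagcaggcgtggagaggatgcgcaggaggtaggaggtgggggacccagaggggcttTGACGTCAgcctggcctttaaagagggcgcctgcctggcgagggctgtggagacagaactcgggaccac
Slc18a2, chr1:268399771-268400020, plus strand: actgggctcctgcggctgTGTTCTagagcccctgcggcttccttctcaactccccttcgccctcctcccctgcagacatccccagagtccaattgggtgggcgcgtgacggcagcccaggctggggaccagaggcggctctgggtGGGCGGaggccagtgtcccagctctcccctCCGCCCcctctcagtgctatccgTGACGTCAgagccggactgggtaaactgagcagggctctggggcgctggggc
Slc6a3, chr1:31578963-31579212, minus strand: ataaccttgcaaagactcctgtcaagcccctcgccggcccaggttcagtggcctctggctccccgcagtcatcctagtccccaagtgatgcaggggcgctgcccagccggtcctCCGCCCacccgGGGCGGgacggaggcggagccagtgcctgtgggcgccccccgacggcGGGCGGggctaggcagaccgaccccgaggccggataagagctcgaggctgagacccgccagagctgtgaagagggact
Hdc, chr3:134318705-134318954, minus strand: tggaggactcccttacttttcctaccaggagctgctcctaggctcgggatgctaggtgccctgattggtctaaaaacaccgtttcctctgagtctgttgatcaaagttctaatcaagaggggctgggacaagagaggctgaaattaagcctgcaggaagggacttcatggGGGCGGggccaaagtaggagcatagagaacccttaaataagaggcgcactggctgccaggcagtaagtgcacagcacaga

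The Th and Slc18a2 windows each hold TGACGTCA, starting 69 and 52 bases before the gene start; 1.59% of all 33469 promoter windows of this length hold it. GGGCGG occurs 3 times in the Slc6a3 window, 2 times in that of Slc18a2 and 1 time in that of Hdc, and in 30.5% of all windows. TGTTCT occurs in the Slc18a2 window and in 17.5% of all. AAAGGTCA (1.24% of all windows) and TATAAA (12.9%) were found in none of the 4 windows shown, and were found, overlapping each other, in 1 of 3 listed Ddc windows. These are letter matches only.

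The first comparison asked which of these genes differed after 2 h of restraint. None of the 15 probe sets passed an adjusted p of 0.05 in limma, against 0.554% of all probe sets (0.341% higher, 0.213% lower), and none passed with unmoderated statistics; at an unadjusted p under 0.05 there were 10, against 16.0% of all probe sets. These 10 include 7 that follow each other from rat to rat, so they are not independent. Of the 15, 12 were higher and 3 lower after restraint, with a median of 1.504 residual SDs (0.12 over all probe sets).

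The genes of dopamine neurons had the largest log2 differences, and they were spread widely among the controls. The Th signal ran from 9.37 through a median of 10.07 to 10.70 in controls and from 10.49 through 10.61 to 11.04 in stressed rats. Control 1 was lowest and control 2 highest, and control 2 lay inside the range of the stressed rats, so the groups overlapped. The Th difference was 0.63 (SE 0.207, 95% interval 0.17 to 1.09, adjusted p = 0.189), with 2 of 6 stressed rats above every control. For none of the 15 probe sets were the groups free of overlap, against 1.78% of all.

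Slc6a3 was measured by 2 probe sets. The first, 1368601_at, ran from 9.18 through 9.79 to 10.61 in controls and from 10.40 through 10.69 to 10.85 in stressed rats. It thus overlapped only through control 2, with 4 of 6 stressed rats above all controls, and differed by 0.78 (SE 0.211, 95% interval 0.31 to 1.26, adjusted p = 0.133). The second, 1368602_at, differed by 0.50 (SE 0.141, adjusted p = 0.15).

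Slc18a2 was higher by 0.49, 0.36 and 0.47 with its 3 probe sets 1369131_at, 1369132_at and 1384933_at (adjusted p = 0.252, 0.193 and 0.138). With 1384933_at the controls ran from 8.85 through 9.03 to 9.60 and the stressed rats from 9.41 through 9.55 to 9.74. Again it was control 2 that reached into the stress range. For Ddc, 1368064_a_at ran from 9.47 through 9.71 to 10.12 in controls and from 10.03 through 10.17 to 10.29 after restraint (difference 0.39, SE 0.105, 95% interval 0.16 to 0.63, adjusted p = 0.13). The other Ddc probe set, 1375317_at, was compressed and differed by 1.504 residual SDs (adjusted p = 0.243).

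Control 2 was the highest control for each probe set named here, so leaving it out could only widen the differences. Without it, 4 of the 15 probe sets passed, against 0.660% of all, each of the 4 higher after restraint: Slc6a3 1368601_at by 0.94 and 1368602_at by 0.60, Slc18a2 1384933_at by 0.56 and Ddc 1368064_a_at by 0.46 (adjusted p = 0.0426, 0.0497, 0.0318 and 0.0472), while Th had an adjusted p = 0.0891. Leaving out any other single array, or controls 4, 5 and 6 together, gave no call. By exact permutation of the 12 arrays, with 0.00216 as the smallest p that the design allows, the unadjusted two-sided p was 0.0108 for Th, 0.00649 for Slc6a3 1368601_at and for Ddc 1368064_a_at, and 0.00866 for Slc18a2 1384933_at.

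**Figure D1:**
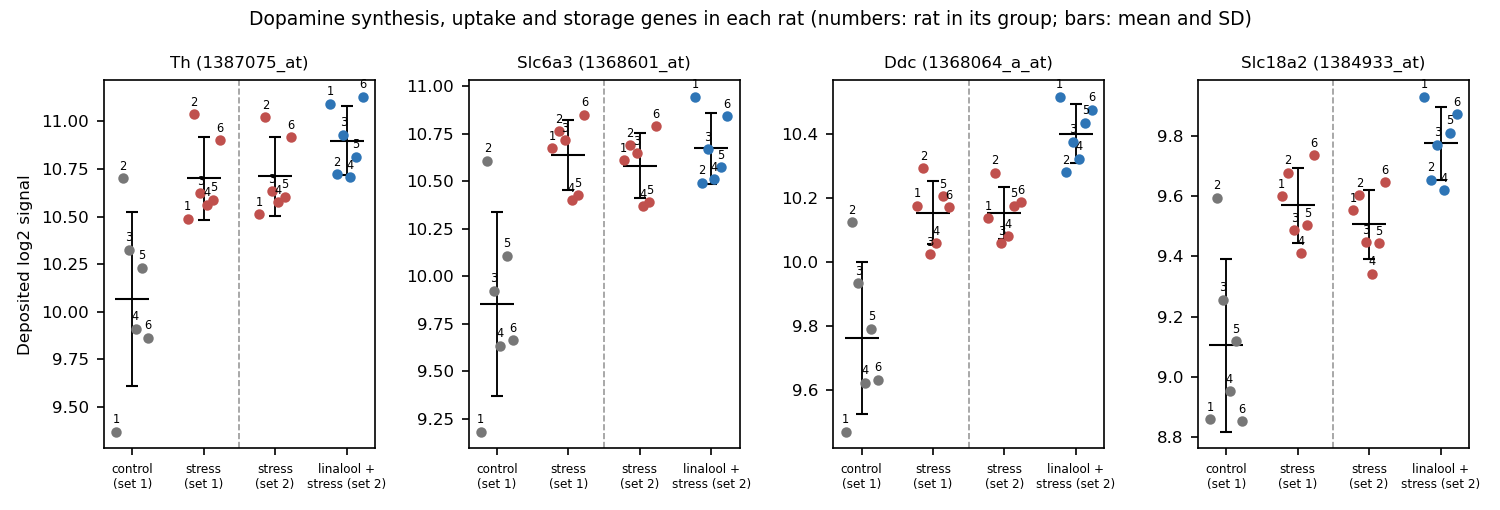
Deposited log2 signals of Th, Slc6a3, Ddc and Slc18a2 (for each gene the probe set with the smallest adjusted p with linalool, on its own y axis) in every rat, by group; numbers are the rats' label numbers, and bars give the mean and SD of 6 rats. The dashed line separates the 2 normalization sets, and the same 6 stress rats stand on both sides of it. Control 2 lies with the stressed rats in all 4 panels, and for Ddc the 6 linalool rats lie above all stressed rats.

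Other cell markers moved with this spread in part. Among the controls, the score of 5 oligodendrocyte genes was also highest in control 2 (1.85 residual SDs) and was -0.14, 0.46, -1.12, -0.62 and -1.64 in controls 1, 3, 4, 5 and 6, against -0.14 to 0.88 after restraint. None of the 10 oligodendrocyte probe sets passed, and the part of these cells in the result was not tested. Of the midbrain dopamine markers outside the list, 4 genes were measured with 5 probe sets. None passed, with differences from 0.74 to 2.05 residual SDs (smallest adjusted p = 0.144). Markers of hypothalamic dopamine cells outside the list (4 genes, 9 probe sets) differed by -0.96 to 1.12 residual SDs, and none passed. In controls 1 to 6 the Th signal was 9.37, 10.70, 10.33, 9.91, 10.23 and 9.86. The meningeal score in the same controls was -0.93, -0.66, 0.53, 0.85, 2.25 and 2.19. The part of meningeal tissue in the result was not tested. Of 14 probe sets for 9 endothelial genes, Slc2a1 rose by 0.36 and 1 of 2 for Kdr fell by 0.64 after restraint (adjusted p = 0.00585 and 0.0351).

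Histamine synthesis, breakdown and receptor genes showed no call after restraint either. Hdc was almost level, from 8.46 through 8.62 to 8.88 in controls and from 8.48 through 8.66 to 8.91 in stressed rats (difference 0.04, SE 0.0909, 95% interval -0.17 to 0.24, adjusted p = 0.868). Maob ran from 10.66 through 10.90 to 11.01 in controls and from 9.92 through 10.73 to 10.83 in stressed rats (difference -0.26, SE 0.151, adjusted p = 0.401). The stress mean rests partly on rat 4, at 9.92. Maoa, compressed in set 1, was lower by 1.59 residual SDs (adjusted p = 0.228), with 5 of 6 controls above every stressed rat.

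The dopamine D2 receptor gene Drd2, the receptor through which dopamine restrains its own neurons and pituitary lactotrophs, differed by 0.20 (SE 0.0953, adjusted p = 0.327). Htr1b, a serotonin receptor that damps transmitter release, was compressed and higher by 1.74 residual SDs (adjusted p = 0.194), with 5 of 6 stressed rats above every control. The first Gch1 probe set was at -0.22 residual SDs (adjusted p = 0.87) and the second at 1.00 (adjusted p = 0.4).

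The second comparison asked what differed when the odour was added to the same restraint. Hdc rose from 8.58 ± 0.167 in stressed rats to 9.18 ± 0.194 in linalool rats (mean ± SD, 6 rats each; 1.51-fold on the linear scale). Ddc (1368064_a_at) rose by 0.25 and Slc18a2 (1384933_at) by 0.27, and compressed probe sets of Gch1 and Slc18a2 rose by 2.22 and 1.93 residual SDs. In all, 5 of 15 probe sets, from 4 of the 10 genes, passed, all of them higher with linalool, against 14.2% of all probe sets passing upward and 25% in either direction. The members' share in either direction was 33.3%, so the count alone does not set them apart. Their median was 0.97 residual SDs, against -0.01 over all probe sets.

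Array controls also differed in this comparison. Of 45 probe sets for bacterial and phage spike-in RNA, which does not come from the rat, 15 were higher and 4 lower with linalool (adjusted over all array controls), with differences from -0.19 to 0.34. The direction went with the spike-in: the 15 higher sets were all for dap, lys, phe or thr RNA, and the 4 lower sets all for bioD or cre RNA. After restraint 1 of the 45 passed, at -0.17 (adjusted p = 0.0254). Of 12 control probe sets for rat RNA, 2 were higher and 6 lower with linalool, and none passed after restraint (limma; 2 had an unadjusted p under 0.05). With linalool the 5S rRNA control differed by -0.39 (adjusted p = 0.000786), and the 5′ and middle beta-actin sets by 0.20 and 0.08 (adjusted p = 0.000786 and 0.00879), while the 3′ beta-actin set did not pass (adjusted p = 0.109). The 5′ and middle GAPDH sets differed by -0.10 and -0.13 (adjusted p = 0.0251 and 0.00476), and the compressed 3′ set passed too (-1.81 residual SDs, adjusted p = 0.0283). The part of RNA quality, labelling and array processing in the linalool differences was not tested.

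Hdc ran from 8.36 through 8.57 to 8.83 in the stressed rats and from 8.999 through 9.14 to 9.54 in the linalool rats. The groups did not overlap, as for 11.9% of all probe sets, and linalool rat 2 was highest. The difference was 0.60 (SE 0.105, 95% interval 0.37 to 0.83, adjusted p = 0.00245), and in the other 18 fits of this comparison the adjusted p lay between 0.00167 and 0.0122. In the same stress rats Hdc had run from 8.48 to 8.91 in set 1, and the 6 values correlated at 0.999 between the sets.

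Cells that also contain Hdc gave a mixed picture. Mast cells carry Hdc too: the 8 other mast cell genes measured were all compressed (9 probe sets), and none passed, with differences from -0.78 to 1.57 residual SDs. The tuberomammillary marker list also holds Slc18a2 and Maob, whose values follow below. Over the whole list, 4 of 13 probe sets passed as higher, from Hdc, Slc18a2 and Gad1. The 5 genes on it that are not among the 10 were measured by 8 probe sets. Of these, the GABA-synthesis gene Gad1 rose by 0.67 with 1 probe set (1370760_a_at, adjusted p = 0.012) and differed by 0.09 with the other (adjusted p = 0.629). The other 6 probe sets, of 4 genes, did not pass, with the lowest at -1.68 residual SDs. None of the 5 probe sets of 4 mammillary genes passed (differences of -0.87 to 1.26 residual SDs). How much of the tuberomammillary region each block held was not tested.

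Of the dopamine genes, Ddc and Slc18a2 had calls with linalool and Th and Slc6a3 had none; differences between these genes were not tested. Ddc (1368064_a_at) ran from 10.06 through 10.16 to 10.28 in stressed rats and from 10.28 through 10.41 to 10.52 in linalool rats. The 2 groups met at 10.28 without overlapping, and the rise of 0.25 had an SE of 0.0496 (95% interval 0.14 to 0.36, adjusted p = 0.0048). The compressed Ddc probe set 1375317_at did not pass (-0.06 residual SDs, adjusted p = 0.954). Th ran from 10.51 through 10.62 to 11.02 and from 10.71 through 10.87 to 11.13, overlapping widely (difference 0.19, SE 0.113, 95% interval -0.06 to 0.44, adjusted p = 0.242). The Slc6a3 probe sets differed by 0.09 and -0.03 (95% intervals -0.14 to 0.32 and -0.14 to 0.08; adjusted p = 0.556 and 0.662). Midbrain dopamine markers outside the list (4 genes, 5 probe sets) differed by -0.95 to 2.62 residual SDs with linalool. Of these, 1 passed, Aldh1a1, which rose by 0.36 (adjusted p = 0.00773). Hypothalamic dopamine markers outside the list (4 genes, 9 probe sets) differed by -1.03 to 1.51 residual SDs, and none passed. The part of these cells in the linalool rises was not tested.

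The Slc18a2 probe sets disagreed in size. With 1384933_at, stressed rats ran from 9.34 through 9.50 to 9.65 and linalool rats from 9.62 through 9.79 to 9.93, 5 of 6 above every stressed rat (rise 0.27, SE 0.0683, adjusted p = 0.0147). The third, 1369131_at, differed by 0.10 (SE 0.069, adjusted p = 0.322). The compressed 1369132_at passed (adjusted p = 0.0317), but its adjusted p lay between 0.055 and 0.0645 in 7 of the 12 fits that left out 1 array (stress rat 1, 3, 4 or 5, or linalool rat 1, 3 or 6), and was 0.166 with quantile normalization and 0.0662 with the replicate block. The SD of this probe set over the same 6 stress arrays was 0.116 in set 1 and 0.000142 in set 2, a ratio of 817, although the values correlated at 0.973. Its size in log2 units is therefore not comparable between the sets.

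Gch1, which starts the cofactor pathway of Th, rose with 1387221_at from 7.7631 ± 0.000138 to 7.7633 ± 8.73e-05, with 4 of 6 linalool rats above every stressed rat (2.22 residual SDs, adjusted p = 0.0178). It was compressed, and whether its signal stood above background was not measured. With quantile normalization its adjusted p was 0.073 and with the replicate block 0.0577. The other Gch1 probe set, 1368503_at, differed by 0.48 residual SDs (adjusted p = 0.581).

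The breakdown enzymes and receptors did not pass. Maoa ran from 10.30 through 10.40 to 10.42 in stressed rats and from 10.36 through 10.54 to 10.58 in linalool rats, 5 of 6 above every stressed rat (difference 0.12, SE 0.0416, adjusted p = 0.0619). It passed with probe sets of low signal left out (adjusted p = 0.0468), with median centring (0.0358) and without linalool rat 3 or 5 (0.0448 and 0.0121), where the difference was 0.13 and 0.14. Of all probe sets, 37.7%, 93.4%, 23.7% and 22.9% passed in these fits. Linalool rats 3 and 5 had the lowest linalool values (10.417 and 10.356), so leaving either out could only widen the difference. The Maoa stress arrays had an SD of 0.0072 in set 1 and 0.0437 in set 2. Maob ran from 9.92 through 10.74 to 10.83 and from 10.26 through 10.94 to 11.10 (difference 0.23, SE 0.187, adjusted p = 0.393). Here 5 of 6 linalool rats lay above every stressed rat and linalool rat 2 lay below all but 1 of them.

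Maob is also carried by astrocytes. Of 15 probe sets of 8 astrocyte genes, 2 rose with linalool (1 of 3 for Gja1, by 0.54, and Mlc1 by 0.54) and 3 fell (both of Slc1a2, with differences of -0.43 and -0.82, and 1 of 3 for Aqp4), so calls went in both directions. Among other cells' markers, Npy and Sst (hypothalamic neuropeptides) rose by 0.31 and 0.44 (adjusted p = 0.00781 and 0.0427), and the microglial genes Aif1 (1 of 2 probe sets) and Itgam rose by 2.34 and 2.10 residual SDs (adjusted p = 0.0133 and 0.0222). The endothelial gene Cldn5 rose by 3.26 residual SDs (adjusted p = 0.00284). The oligodendrocyte genes Mag and Mbp (1 of 3 probe sets) fell by 0.24 and 0.30 (adjusted p = 0.00443 and 0.0296), and the pituitary gene Gh1 fell by 2.21 residual SDs (adjusted p = 0.0186). The part of these cells in the linalool differences was not tested.

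Drd2 differed by 0.16 (SE 0.0659, adjusted p = 0.101). It passed in 2 of the other 18 fits, among them the fit without stress rat 2 (0.21, adjusted p = 0.0146). Stress rat 2 had the highest stress value (8.78), so leaving it out could only widen the difference. Among stressed rats, the score of 8 striatal genes, Drd2 included, was also highest in rat 2 (1.37 residual SDs). Among linalool rats this score was highest in rat 5 (2.04), which also had the highest Drd2 value (8.87). None of the 10 probe sets of the other 7 striatal genes passed with linalool. The part of striatal tissue was not tested. Htr1b was lower by 1.36 residual SDs with linalool (adjusted p = 0.108), and its sign turned with median centring (0.0074 in log2 units) and with quantile normalization (0.0043).

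**Figure D2:**
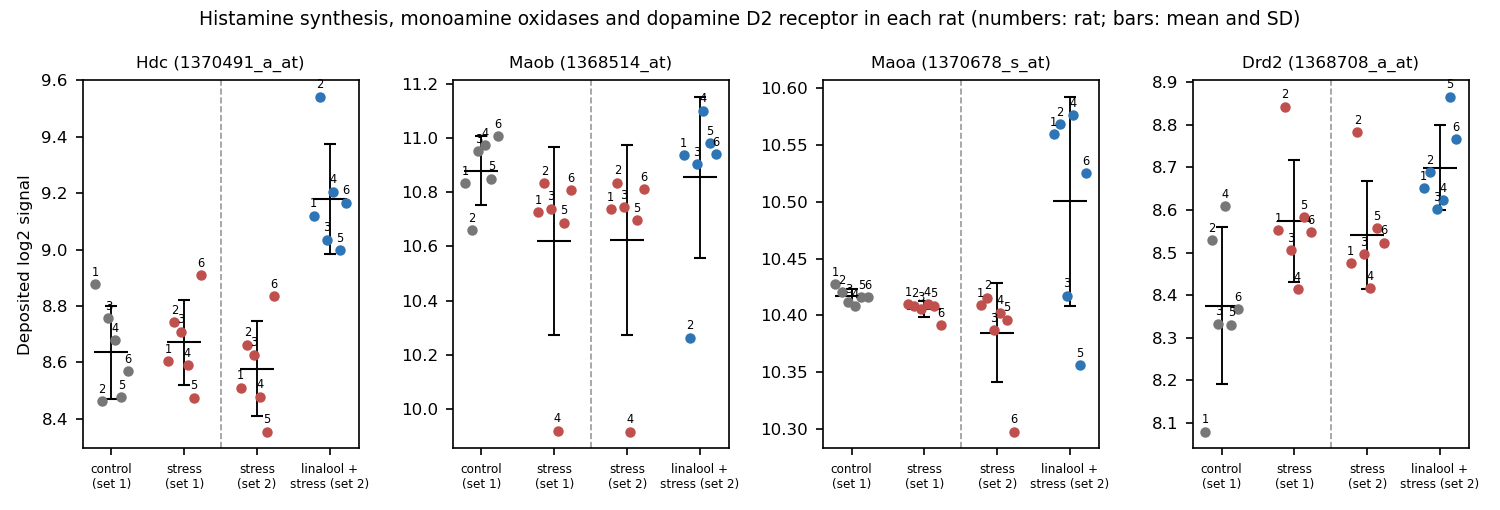
Deposited log2 signals of Hdc, Maob, Maoa and Drd2 in every rat, by group, each panel with its own y axis; numbers are the rats' label numbers, and bars give the mean and SD of 6 rats. The 6 Hdc values with linalool (8.999 to 9.54) lie above all stressed rats in set 2, and stress rat 4 (9.92) and linalool rat 2 (10.26) stand apart for Maob.

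**Figure D3:**
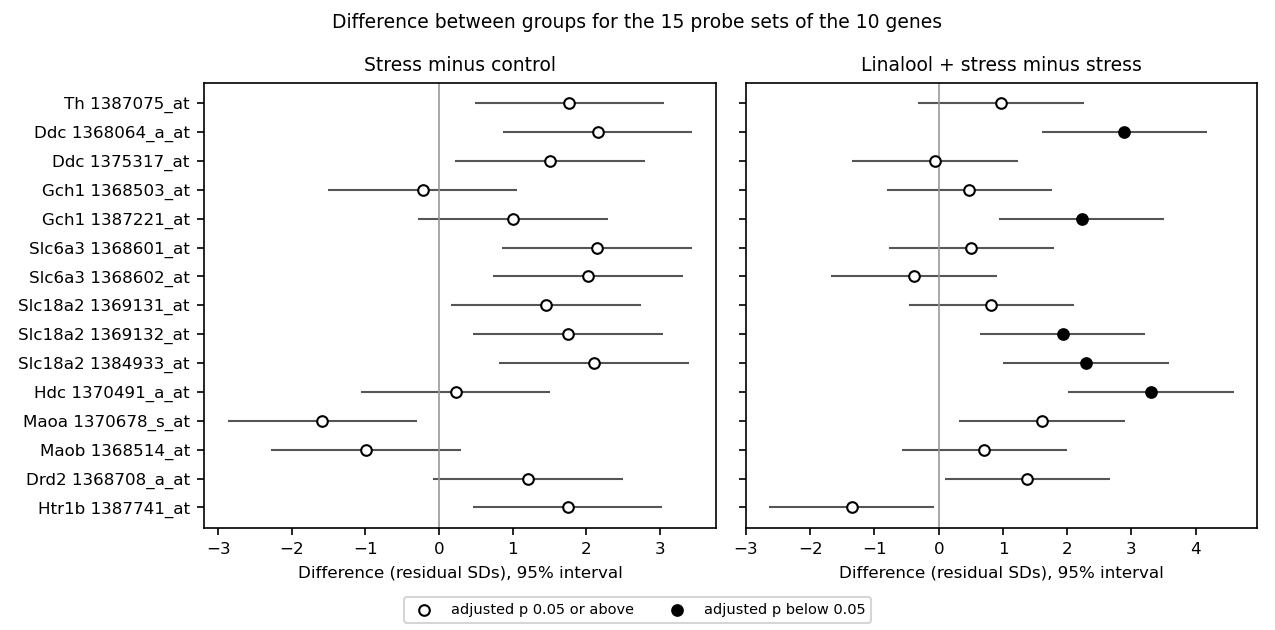
Differences between group means for the 15 probe sets in residual SDs (x axis) with 95% intervals, 6 rats per group. The intervals take the residual SD as fixed, so they are too narrow for large differences. Filled circles have an adjusted p below 0.05 over all probe sets. No circle is filled for stress minus control, and 5 are filled on the right, all above 0, with Hdc highest at 3.31.

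Pooled over the groups of each set, Th, Slc6a3, Slc18a2 and Ddc varied together from rat to rat, and Hdc correlated weakly with them. Within single groups, Th with Hdc gave r = -0.709 in controls and 0.715 in stressed rats, and neither relation passed. The pooled values for Hdc therefore do not describe each group. In deviations from group means over the 12 arrays of set 1, the 21 pairs among 7 probe sets of these genes (all but Ddc 1375317_at) had Pearson correlations from 0.825 to 0.985, with a median of 0.896. In set 2 they ran from 0.284 to 0.890, median 0.721. The compressed Ddc probe set correlated with the 7 at 0.280 to 0.593 and -0.343 to 0.311. Gch1 1387221_at, also compressed, went with the 7 as well, at 0.641 to 0.879 in set 1 and 0.414 to 0.808 in set 2. Hdc correlated with the other 14 probe sets at -0.381 to 0.405 in set 1 and -0.276 to 0.271 in set 2. The arrays share block dissection and the stress rats are in both sets, so these correlations are descriptions.

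**Figure D4:**
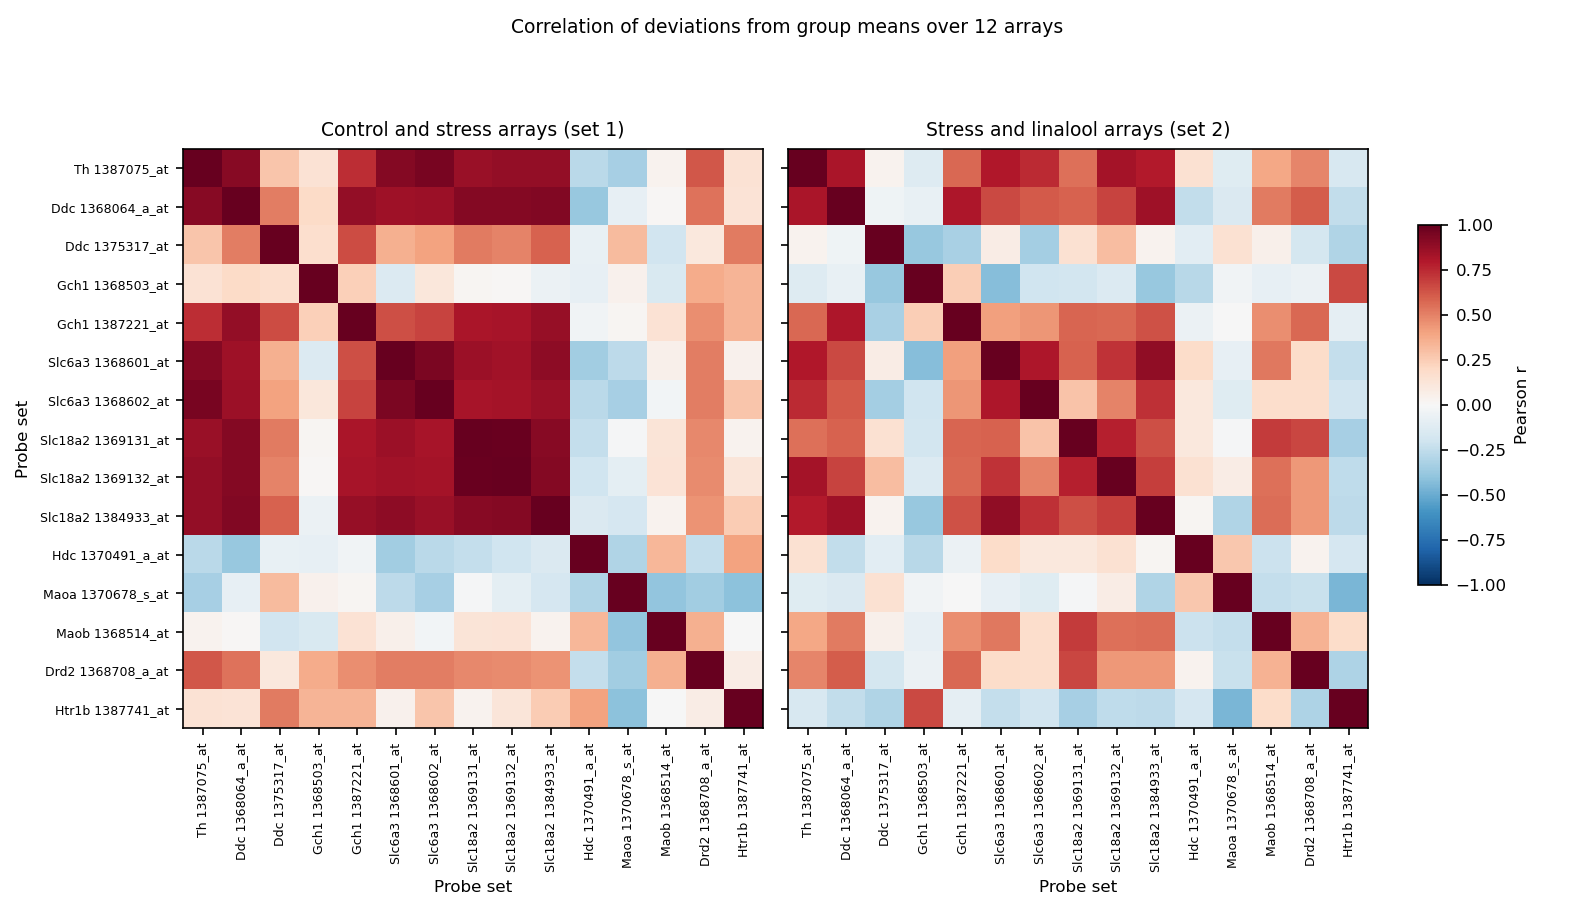
Pearson correlations between the 15 probe sets of deviations from group means over 12 arrays, for set 1 (left) and set 2 (right); red is positive and blue negative. The red of Th, Ddc 1368064_a_at, Slc6a3 and Slc18a2 with each other stands out in both sets, more strongly in set 1. Gch1 1387221_at is also red with them, and Hdc lies outside.

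Within the groups, Th was set against the probe set with the highest mean of Ddc, Slc6a3, Slc18a2 and Hdc, 12 relations in all over 6 rats each, with exact two-sided permutation tests adjusted over the 12. In controls, Th correlated with Ddc at r = 0.975 (rho 0.943; exact p = 0.00556 and 0.0167, adjusted 0.0278 and 0.08), with Slc6a3 at r = 0.973 (rho 0.886; exact p = 0.0111 and 0.0333, adjusted 0.0333 and 0.08) and with Slc18a2 at r = 0.931 (rho 1; exact p = 0.00694 and 0.00278, adjusted 0.0278 and 0.0333). Without the 2 controls farthest from the Th median, r was 0.966, 0.865 and 0.990. In linalool rats, r was 0.871, 0.964 and 0.865 (rho 0.829, 0.886 and 0.886; exact p of r 0.0417, 0.00556 and 0.0278, adjusted 0.0833, 0.0278 and 0.0667; exact p of rho 0.0583, 0.0333 and 0.0333, adjusted 0.117, 0.08 and 0.08), and without 2 rats 0.615, 0.986 and 0.732.

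In stressed rats no relation passed. There r was 0.590, 0.638 and 0.570 (rho 0.257, 0.771 and 0.371; exact p of r 0.208, 0.143 and 0.264, adjusted 0.25, 0.191 and 0.288; exact p of rho 0.658, 0.103 and 0.497, adjusted 0.658, 0.176 and 0.542). It was -0.503, -0.0902 and -0.0768 without rats 2 and 6, the 2 farthest from the Th median. Leaving these out narrows the range of Th, so r over the 4 left cannot show what the relation rests on. Th with Hdc gave r = -0.709, 0.715 and -0.408 in controls, stressed and linalool rats (rho -0.6, 0.714 and -0.371; exact p of r 0.114, 0.117 and 0.481, adjusted 0.175, 0.175 and 0.481; exact p of rho 0.242, 0.136 and 0.497, adjusted 0.322, 0.204 and 0.542), and 0.152, 0.180 and -0.674 without 2 rats.

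Over all 14217 genes, each with 1 probe set, those most like Th by the smaller of the correlations in the 2 sets were Ddc (0.816), Slc6a3 (0.803), Marchf2 (0.778), Lamp1 (0.778) and Fermt2 (0.762). Ddc and Slc6a3 are themselves among the 10 genes. Those most like Hdc were Atosb (0.817), Septin11 (0.771), Pcsk4 (0.759), Sytl4 (0.728) and Ghrh (0.691), none of them on the 6 further monoamine lists described next. Ghrh is on the marker list of hypothalamic dopamine cells. All but Marchf2, Ddc, Slc6a3 and Septin11 of these 10 had differences under 0.01 in log2 units in both comparisons. With linalool, however, Atosb and Pcsk4 passed as lower (adjusted p = 0.0281 and 0.00507) and Sytl4 and Septin11 as higher (0.0353 and 0.0207). Marchf2 and Ddc also passed as higher (0.0314 and 0.0048), against 25% of all probe sets passing in either direction. Ghrh, Slc6a3, Lamp1 and Fermt2 did not pass, and none of the 10 passed after restraint.

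Other monoamine genes were read from 6 lists that covered 48 measured genes with 68 probe sets. After restraint none of the 68 passed, and the smallest adjusted p was 0.195 (Drd5). With linalool 8 rose, 4 fell and 56 did not pass, from 11 genes, against 25% of all probe sets. With 1 probe set per gene, 0.71% of all genes passed after restraint and 29.7% with linalool.

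In the cofactor pathway, Qdpr, which regenerates tetrahydrobiopterin, rose from 11.39 ± 0.064 to 11.82 ± 0.0375 (difference 0.43, SE 0.0303, adjusted p = 3.54e-05). Pts, which acts after Gch1, and Gchfr, the regulator of Gch1, rose as well, Pts by 2.23 residual SDs (adjusted p = 0.017) and Gchfr by 1.92 (adjusted p = 0.032). Dbh and Pnmt, the other measured genes of the same list, did not pass (adjusted p = 0.0949 and 0.422), so 3 of 5 genes passed. Pts and Gchfr were compressed. Hnmt, which inactivates histamine in brain, rose by 2.24 residual SDs with 1387382_at (adjusted p = 0.0203) and was at -0.40 with 1385762_at (adjusted p = 0.652). The aldehyde dehydrogenases Aldh7a1, Aldh2 and Aldh1a1, which oxidize aldehydes such as those left by monoamine oxidase, rose by 0.33, 0.27 and 0.36 (adjusted p = 0.000232, 0.000287 and 0.00773). Quantile normalization left 6 calls over the 6 lists in place of 12.

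Among receptors and signalling genes, Adra2a rose by 3.75 residual SDs with 1387708_at (adjusted p = 0.00133) and differed by 1.44 with 1393048_at (adjusted p = 0.0912). Adra1b fell from 9.32 ± 0.286 to 8.84 ± 0.203 (adjusted p = 0.0277), 2 of 3 Htr7 probe sets fell, with differences of -2.99 and -1.80 residual SDs (adjusted p = 0.00439 and 0.0435), and Gnal, the G protein that couples dopamine D1 receptors, fell with 1384229_at (-2.58 residual SDs, adjusted p = 0.00838) but did not pass with 1394575_at (-0.25, adjusted p = 0.0753). None of the 7 histamine receptor probe sets passed; Hrh2 differed by -1.66 residual SDs (adjusted p = 0.0558).

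For other amine systems, the 3 noradrenaline markers measured were all compressed in both sets, and none passed (adjusted p from 0.0949 to 0.998). None of the 3 serotonin neuron markers passed either, with adjusted p of 0.654 or more after restraint and 0.0564 or more with linalool.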

How the data were processed

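RNA from 18 hypothalamic blocks was measured on 3′ expression arrays, with biotin-labelled cRNA made from 500 ng of total RNA per the labels' protocols. The authors deposited log2 signals per probe set (5.59 to 14.93), normalized in 2 sets per the series design text; the sources used here do not name the summarization or scaling method, and the log2 scale was read from the values. Of 31099 probe sets, 57 array controls were left out. Gene names come from the platform's table; all 10 symbols matched a RefSeq table of GRCr8 by gene identifier.

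Linear models (lmFit and eBayes of limma 3.58.1, R 4.3.3) were run per comparison (two-sided, no filter or further normalization) over 31042 probe sets, with Benjamini-Hochberg adjustment over all of them and a threshold of 0.05. The number of arrays limits precision, and p-values set each difference against the spread of arrays within groups. With 1 array per rat, that spread holds dissection and array processing as well as differences between rats. Fits were tested on simulated data. Scores are mean deviations, in residual SDs, from the midpoint of the group means, over 1 probe set per gene. Alternatives were 1 probe set per gene, median centring, quantile normalization, a filter on low signal, unmoderated statistics, exact permutation, the replicate number as a block, and arrays left out. The labels give groups the same numbers without stating pairs, so same-numbered arrays were not treated as pairs. Their deviations correlated at 0.0755 to 0.223 in set 1 and -0.105 to 0.182 in set 2. In set 1, arrays 1, 3 and 6 correlated best with their own number. What the shared numbers stand for was not tested, and the replicate block is given as an alternative. All members are named with every probe set; genes of the 6 further lists are named where they passed or had the smallest p, those most like Hdc and Th by the stated rank, and other cells' markers where they passed; control probe sets for rat RNA were singled out after their values were seen. Members and lists were chosen with earlier results of these data known.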

Additional observations from a re-analysis of the deposited data

Results flagged for a closer look

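For 6 of the 60 sets of 6 values (15 probe sets in 4 groups, the stress rats counted in both sets), 1 rat lay farther from the other 5 than Dixon's 95% critical value allows; chance gives about 1 in 20. Maob was far lower in stress rat 4 than in the other stress rats, at 9.92 in set 1 (next value 10.69) and 9.917 in set 2 (next 10.70), and in linalool rat 2, at 10.264 (next 10.90). Maoa was low in stress rat 6, at 10.391 in set 1 (next 10.405) and 10.298 in set 2 (next 10.387). Htr1b, a compressed probe set, was lowest in control 5, at 7.7466 (next 7.7471). The repeats in set 2 are the same arrays and add no evidence.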

How the results depend on the processing

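With linalool, 5 member probe sets passed; 3 did with 1 probe set per gene (10 tested), 3 with quantile normalization, 3 with the replicate block and 10 with median centring, which adds shifts of whole arrays to compressed probe sets. Leaving out 1 array gave 4 to 6. The block kept Hdc, Ddc (1368064_a_at) and Slc18a2 (1384933_at); not every array correlated best with its own number. After restraint, 0 passed in every setting except without single arrays, where the count ran from 0 to 4. The other monoamine lists had 12 calls with linalool, 6 with quantile normalization; the cause was not tested. Over all probe sets, 7763 passed with linalool, 2608 with quantile normalization and 28990 (27524 higher) with median centring, against 4403 higher of the 7763. After restraint 172 passed, 92 with median centring, 77 with quantile normalization, 16 with the replicate block, 1 without controls 4, 5 and 6, and 24 to 205 without single arrays.

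Directions turned for 4 probe sets. Gch1 1368503_at after restraint was 0.0096 with median centring and 0.0029 with quantile normalization. Hdc after restraint ran from -0.012 (without stress rat 6) to 0.0838 without single arrays and was -0.027 without controls 4, 5 and 6. Ddc 1375317_at with linalool was 0.0076 with median centring, 0.0058 with quantile normalization, and ran from -6.93e-05 to 3.19e-05 without single arrays (above 0 without stress rat 1 or linalool rat 1, 4 or 5). Htr1b with linalool, at -1.36 residual SDs as fitted, was 0.0074 in log2 units with median centring and 0.0043 with quantile normalization. Signal over background was not measured, so a compressed probe set does not show a steady transcript.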
